A study of Mus musculus with 8 samples.

Results

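The 10 genes described here encode the ISG15 conjugation system and 5 interferon-induced antiviral proteins in 4T1 cells, a mouse triple-negative breast cancer line of BALB/c origin. Isg15, Uba7, Ube2l6, Herc6 and Usp18 make up the first set, and Mx1, Mx2, Rsad2, Bst2 and Ifi44 the second. The genes were selected on their family membership and on the fold changes that the 2 deposited comparisons had shown, so their levels and differences are given as descriptions without a p-value. Where a member is said to be called, the word gives its place in the fit over all genes and is no test of the choice. Each of the 10 symbols has 1 row in each table, and all 10 passed the filter that kept 13924 of 28675 genes, which asked for a mean normalized count of 10 or more over the libraries.

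Cells were treated with single-domain antibodies (sdAbs), the small antigen-binding domains of camelid antibodies. sdAb#07.81 was selected for binding to NUPR1, a stress-induced chromatin protein, and sdAb-Con is its control. Both proteins were purified from HEK293F cells, a human kidney line, and carried 3xFlag, the C-degron cOdc1, the cell-penetrating Tat peptide and 6xHis. The groups described are sdAb-Con (48 h) and sdAb#07.81 at 24 h and 48 h, each with 2 libraries and each given 0.5 μg/mL of its sdAb. By the culture methods of the study, all cells were kept at 1% O2. The Con group was not analysed here. Nothing in the labels says whether the 2 libraries of a group came from separate cultures, so every error and p-value below measures the spread between these libraries, which may be technical.

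ISG15 is a ubiquitin-like protein that is attached to other proteins by a chain of enzymes parallel to that of ubiquitin. UBA7 activates it, UBE2L6 carries it and an E3 ligase of the HERC family, in mice HERC6, transfers it to the target. USP18 removes it again and also binds the type I interferon receptor, where it limits signalling. MX1 and MX2 are dynamin-like GTPases that block virus replication, and many inbred mouse strains, BALB/c among them, carry a defective Mx1 allele. RSAD2 (viperin) makes an antiviral nucleotide analog, BST2 (tetherin) holds budding virus particles at the cell surface, and IFI44 is an interferon-induced protein of the cytoplasm. Genes of this kind are typically switched on through the interferon-stimulated response element (ISRE), a short sequence in their promoters.

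The promoters of 4 members are shown because 3 of them hold an exact match to the ISRE-type letters given below. The fourth, that of Ifi44, holds no exact match. Near matches were not counted, so its window is not shown to lack an ISRE. RefSeq promoters on build GRCm38.p6 were at hand for 7 members, Isg15, Uba7, Ube2l6, Herc6, Rsad2, Bst2 and Ifi44. Each line gives the 250 bases before the start of the gene, 5′ to 3′ on the strand of the gene. Capitals mark every run that matches GAAANNGAAA or its reverse complement TTTCNNTTTC. The windows lie at chr4:156200819-156201068 (minus strand) for Isg15, chr8:71537473-71537722 (minus strand) for Bst2, chr12:26456453-26456702 (minus strand) for Rsad2 and chr3:151749911-151750160 (minus strand) for Ifi44.
Isg15: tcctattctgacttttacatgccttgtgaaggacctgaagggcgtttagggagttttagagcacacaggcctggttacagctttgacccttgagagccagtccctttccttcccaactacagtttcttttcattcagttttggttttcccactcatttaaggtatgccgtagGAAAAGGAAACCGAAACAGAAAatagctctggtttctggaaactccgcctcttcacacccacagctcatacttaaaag
Bst2: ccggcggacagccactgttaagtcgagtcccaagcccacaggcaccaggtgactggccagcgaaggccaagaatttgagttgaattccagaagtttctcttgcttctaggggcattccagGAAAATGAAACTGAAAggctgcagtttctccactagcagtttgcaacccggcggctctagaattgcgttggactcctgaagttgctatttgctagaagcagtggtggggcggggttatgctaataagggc
Rsad2: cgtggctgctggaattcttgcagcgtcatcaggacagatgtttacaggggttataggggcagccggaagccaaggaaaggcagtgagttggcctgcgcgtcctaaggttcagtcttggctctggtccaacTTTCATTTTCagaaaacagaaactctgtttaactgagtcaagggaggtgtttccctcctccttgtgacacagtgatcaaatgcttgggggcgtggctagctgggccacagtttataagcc
Ifi44: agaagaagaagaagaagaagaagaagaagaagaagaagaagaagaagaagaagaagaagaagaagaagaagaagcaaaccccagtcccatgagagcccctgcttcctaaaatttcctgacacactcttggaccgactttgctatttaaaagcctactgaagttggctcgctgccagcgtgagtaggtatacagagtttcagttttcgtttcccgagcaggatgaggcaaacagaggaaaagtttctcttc

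The Isg15 window held 3 overlapping matches in the run GAAAAGGAAACCGAAACAGAAA, 78 to 57 bases before the start. The Bst2 window held 2 overlapping matches in GAAAATGAAACTGAAA, 130 to 115 bases before the start. The Rsad2 window held 1 match, TTTCATTTTC, 120 to 111 bases before the start. Of the 7 windows of members 3 held such letters, against 2.98% of all 32851 promoter windows of the same length and 11 of the 33 windows of other interferon-stimulated genes that were kept. The other 4 windows, that of Ifi44 included, held no exact match to these 10 letters. The letters TTCNNNGAA, the core of the gamma-activated sequence, occurred in the Bst2 window alone among the 7 and in 7.02% of all windows. A match describes letters in a window and was not tied to any level below.

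All 10 members were highest in sdAb#07.81 (48 h) and lowest in sdAb#07.81 (24 h), with sdAb-Con (48 h) between them. The median log2 difference over the members, on the scale log2(normalized count + 1), was 1.21 in sdAb#07.81 (48 h) vs sdAb-Con (48 h), with a range from 0.26 (Ube2l6) to 1.65 (Mx1). It was 3.94 in sdAb#07.81 (48 h) vs sdAb#07.81 (24 h), from 1.40 (Ube2l6) to 5.83 (Ifi44). The third difference, sdAb-Con (48 h) vs sdAb#07.81 (24 h), had a median of 2.65, from 0.91 (Uba7) to 4.38 (Mx2). The median over all 13924 genes tested was -0.02, -0.01 and 0.00 in the same order. The 3 groups were fitted together, so the third difference is the second minus the first, and each pair of comparisons shares 2 libraries. In the third, the antibody and the time differ at once and cannot be told apart. In bulk RNA, more RNA per cell and more cells making it cannot be told apart either.

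In sdAb#07.81 (48 h) vs sdAb-Con (48 h), 7 of the 10 members were called higher by limma at an adjusted p under 0.05, against 6.57% of all genes. Uba7, Ube2l6 and Bst2 were not called. Without the filter on low counts 0 of the 10 were called, with 7 of 28675 genes called and 4591 at an unadjusted p under 0.05 (limma). In the other 2 comparisons all 10 were called higher, where 21.4% and 25.2% of all genes were. Both sdAb#07.81 (48 h) libraries lay above both sdAb-Con (48 h) libraries for 8 members, and 27.9% of all genes had this order. For all 10 members both libraries of either 48 h group lay above both sdAb#07.81 (24 h) libraries, an order found in 35.1% of all genes for sdAb#07.81 (48 h) and in 37.3% for sdAb-Con (48 h). Since these comparisons chose the members, nothing is read from the distance between those shares.

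**Figure D1:**
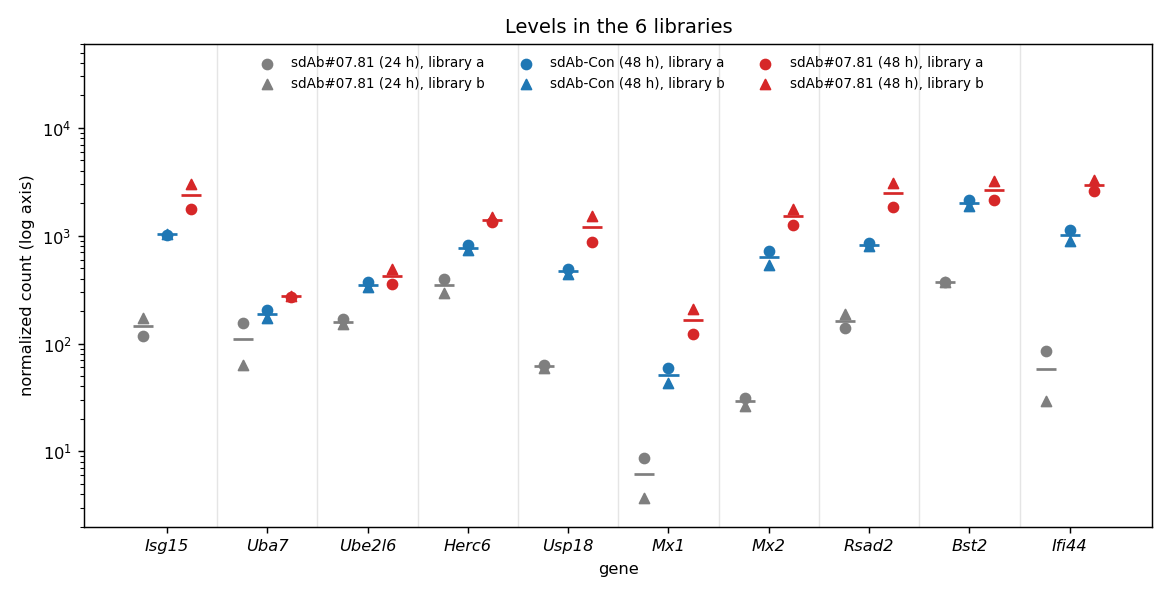
Normalized counts (log axis) of the 10 genes in each of the 6 libraries, with circles for library a, triangles for library b and a bar at the mean of each group. For every gene the grey points of sdAb#07.81 (24 h) lie lowest, and the blue and red points of the 48 h groups overlap for Ube2l6 and Bst2.

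The modifier itself, Isg15 (ENSMUSG00000035692, chromosome 4 from 156283912 to 156285253, minus strand, in coordinates of the tables, which name no build), had normalized counts of 1777 and 2990.2 in sdAb#07.81 (48 h). The sdAb-Con (48 h) libraries had 1024 and 1047, and the sdAb#07.81 (24 h) libraries 117 and 172. The 3 groups did not overlap, and the upper group was the most spread. The log2 difference was 1.15 ± 0.195 (SE) against sdAb-Con (48 h), a fold of 2.23, and 4.02 ± 0.195 against sdAb#07.81 (24 h), a fold of 16.2. From sdAb#07.81 (24 h) to sdAb-Con (48 h) it was 2.86 ± 0.195.

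Usp18 (ENSMUSG00000030107, chromosome 6 from 121222865 to 121247876, plus strand), the protease that reverses the modification, followed nearly the same course. Its normalized counts were 884 and 1516 in sdAb#07.81 (48 h), 493 and 439 in sdAb-Con (48 h) and 63.1 and 59.7 in sdAb#07.81 (24 h). The groups were again apart, and the 2 libraries at 24 h differed little. The log2 difference was 1.31 ± 0.195 against sdAb-Con (48 h) and 4.22 ± 0.195 against the 24 h group, and between the latter groups it was 2.90.

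The 3 enzymes that attach ISG15 had smaller differences from the 24 h group than Isg15 and Usp18 had. Uba7 (ENSMUSG00000032596, chromosome 9 from 107852704 to 107861259, plus strand), the activating enzyme, had normalized counts of 270.0 and 279 in sdAb#07.81 (48 h), 203 and 173 in sdAb-Con (48 h) and 155 and 63.4 in sdAb#07.81 (24 h). The groups did not overlap, but the 2 libraries at 24 h were 2.44-fold apart. Its log2 difference against sdAb-Con (48 h) was 0.55 ± 0.274, with a 95% interval, before adjustment, from -0.03 to 1.12, and it was called when either 24 h library was left out. The difference against sdAb#07.81 (24 h) was 1.46, with 2.09 without sdAb#07.81 (24 h) a and 0.82 without sdAb#07.81 (24 h) b. The difference in sdAb-Con (48 h) vs sdAb#07.81 (24 h) was 0.91 and moved likewise, being 1.54 without sdAb#07.81 (24 h) a and 0.27 and not called without sdAb#07.81 (24 h) b. It was 0.80 and not called without sdAb-Con (48 h) a.

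Ube2l6 (ENSMUSG00000027078, chromosome 2 from 84629172 to 84640679, plus strand), the conjugating enzyme, had normalized counts of 356 and 497 in sdAb#07.81 (48 h) and 374 and 332 in sdAb-Con (48 h). These 2 groups overlapped, while the sdAb#07.81 (24 h) libraries were lower at 167 and 151. The log2 difference against sdAb-Con (48 h) was 0.26 ± 0.173, with a 95% interval, before adjustment, from -0.11 to 0.62, and it was 0.01 without sdAb#07.81 (48 h) b and 0.49 without sdAb#07.81 (48 h) a. Against sdAb#07.81 (24 h) it was 1.40 ± 0.173, close to the 1.14 in sdAb-Con (48 h) vs sdAb#07.81 (24 h).

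Herc6 (ENSMUSG00000029798, chromosome 6 from 57557985 to 57641617, plus strand), the ligase, had normalized counts of 1344 and 1479 in sdAb#07.81 (48 h), 823 and 729.8 in sdAb-Con (48 h) and 399.7 and 298 in sdAb#07.81 (24 h). No groups overlapped, and the libraries of sdAb#07.81 (48 h) were within 1.10-fold of each other. The log2 difference was 0.86 ± 0.144 against sdAb-Con (48 h) and 2.03 ± 0.144 against the 24 h group, folds of 1.82 and 4.08.

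The dynamin-like GTPases Mx1 and Mx2 lie on chromosome 16, Mx1 (ENSMUSG00000000386) from 97248235 to 97264107 on the minus strand and Mx2 (ENSMUSG00000023341) from 97336508 to 97362100 on the plus strand. Mx1 was the lowest member at 24 h. Its normalized counts were 123 and 210.0 in sdAb#07.81 (48 h), 59.4 and 42.7 in sdAb-Con (48 h) and 8.61 and 3.67 in sdAb#07.81 (24 h), the last from 9 and 4 reads. The groups did not overlap. The log2 difference of Mx1 was 1.65 ± 0.378 against sdAb-Con (48 h), and it was 1.27 without sdAb#07.81 (48 h) b and 1.42 without sdAb-Con (48 h) b, in neither case called.

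Mx2 had normalized counts of 1269 and 1761 in sdAb#07.81 (48 h), 718 and 539 in sdAb-Con (48 h) and 31.6 and 26.6 in sdAb#07.81 (24 h). Its log2 difference was 1.26 ± 0.184 against sdAb-Con (48 h) and 5.64 ± 0.184 against the 24 h group, the latter a fold of 49.9. In sdAb-Con (48 h) vs sdAb#07.81 (24 h) its difference, 4.38, was the largest of the 10 members, but without sdAb#07.81 (24 h) a it was 4.49 and that of Ifi44 5.04. For Mx1, the differences of the 48 h groups from the 24 h group were 4.59 ± 0.378 (sdAb#07.81) and 2.94 ± 0.378 (sdAb-Con). How reads shared by the related Mx1 and Mx2 were counted is not given in the sources used here, so the split between them is uncertain.

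Rsad2 (ENSMUSG00000020641, chromosome 12 from 26492745 to 26506451, minus strand), the viperin gene, had normalized counts of 1848 and 3085 in sdAb#07.81 (48 h). The sdAb-Con (48 h) libraries had 851 and 801, and the sdAb#07.81 (24 h) libraries 141 and 186. The groups stood apart from each other by more than the 1.67-fold gap between the upper 2 libraries. The log2 differences were 1.53 ± 0.184 against sdAb-Con (48 h), a fold of 2.89, and 3.87 ± 0.184 against sdAb#07.81 (24 h).

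Ifi44 (ENSMUSG00000028037, chromosome 3 from 151436559 to 151455597, minus strand) had normalized counts of 2621 and 3280.0 in sdAb#07.81 (48 h), 1124 and 891 in sdAb-Con (48 h) and 86.1 and 29.4 in sdAb#07.81 (24 h). The 3 groups did not overlap, although the 24 h libraries were 2.93-fold apart. It had the largest difference of the members against sdAb#07.81 (24 h), 5.83 ± 0.288 on the log2 scale, a fold of 57.0. It was 6.59 without sdAb#07.81 (24 h) a and 5.07 without sdAb#07.81 (24 h) b, and in the latter case the 5.52 of Mx2 was the largest. Against sdAb-Con (48 h) the log2 difference was 1.55 ± 0.288, and it was 1.38 and no longer called without sdAb-Con (48 h) b.

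Bst2 (ENSMUSG00000046718, chromosome 8 from 71986899 to 71990100, minus strand), the tetherin gene, was, with Ube2l6, one of the 2 members whose 48 h groups overlapped. Its normalized counts were 2134 and 3210.0 in sdAb#07.81 (48 h) and 2157 and 1881 in sdAb-Con (48 h). In sdAb#07.81 (24 h) they were 376 and 370.1. The log2 difference against sdAb-Con (48 h) was 0.38 ± 0.151, with a 95% interval from 0.06 to 0.69 before adjustment. It depended on 1 library, being 0.08 and not called without sdAb#07.81 (48 h) b and 0.67 and called without sdAb#07.81 (48 h) a. Against sdAb#07.81 (24 h) it was 2.81 ± 0.151, of which 2.43 lay between sdAb#07.81 (24 h) and sdAb-Con (48 h).

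**Figure D2:**
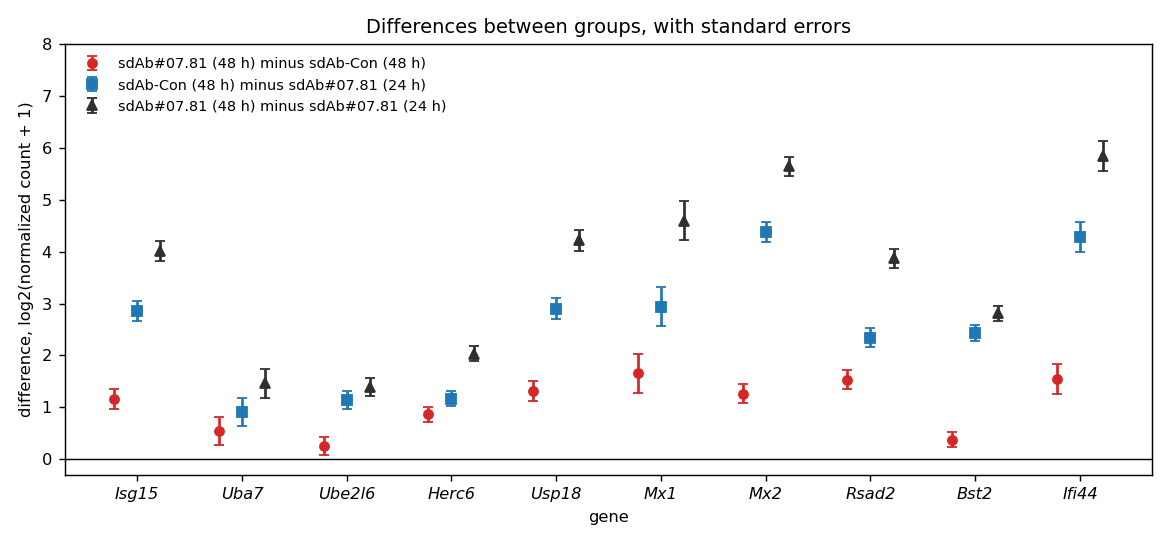
Differences of the 10 genes on the scale log2(normalized count + 1), with bars of 1 standard error from the fit over 6 libraries. The red circles (sdAb#07.81 (48 h) minus sdAb-Con (48 h)) stay between 0.26 and 1.65, while the black triangles (sdAb#07.81 (48 h) minus sdAb#07.81 (24 h)) reach from 1.40 to 5.83 and are the sum of the red and blue values.

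The larger part of each member's log2 difference between the sdAb#07.81 times was also found between sdAb#07.81 (24 h) and the control antibody at 48 h. The share of sdAb#07.81 (48 h) vs sdAb#07.81 (24 h) that lay between sdAb#07.81 (24 h) and sdAb-Con (48 h) ran from 57.5% for Herc6 to 86.5% for Bst2. It was 60.5% for Rsad2, 71.3% for Isg15, 77.6% for Mx2 and 81.8% for Ube2l6. Without sdAb#07.81 (24 h) b the share was 32.8% for Uba7, so that the larger part no longer lay there, while for the other 9 members it was at least 52.3% whichever library was left out. These shares are ratios of differences that use the same libraries, and no error was put on them.

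Per kilobase of exon, with lengths from the GENCODE M21 annotation matched by gene identifier, Isg15 and Bst2 had the highest levels. Each length was the union of all annotated exons of the gene, which can exceed that of the transcript made. In sdAb#07.81 (48 h) they had 2350.0 and 3955 (Isg15) and 2364 and 3555 (Bst2) normalized counts per kilobase, and their libraries overlapped. Rsad2 (426 and 712), Ifi44 (428 and 535), Usp18 (317 and 543) and Mx2 (351 and 487) came next and overlapped one another. Ube2l6 (178 and 249) and Herc6 (145 and 159) followed without overlap, and Mx1 (32.5 and 55.5) and Uba7 (40.4 and 41.7) were lowest and overlapped. In sdAb-Con (48 h) Bst2 (2389 and 2083) lay above Isg15 (1354 and 1385), and in sdAb#07.81 (24 h) it did so too, with 416 and 409.9 against 154 and 227. By the means of sdAb#07.81 (48 h), the modifier gene was highest and the gene of its activating enzyme lowest in level per kilobase. Uba7 had 41.0 there and Mx1 44.0, an order that depends on the lengths used, 6692 bases for Uba7 and 3785 for Mx1. In the other 2 groups Mx1 was lower than Uba7, with 15.7 and 11.3 against 30.3 and 25.9 in sdAb-Con (48 h) and 2.27 and 0.971 against 23.1 and 9.47 in sdAb#07.81 (24 h).

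The 2 libraries of sdAb#07.81 (48 h) differed in one direction for every member. Library b was higher than library a for all 10, by 1.03-fold (Uba7) to 1.71-fold (Usp18), and for 5 by over 1.5-fold. Of all genes tested, 3.66% were over 1.5-fold higher in library b, and the median log2 difference of all genes between the libraries was 0.00. In sdAb-Con (48 h), library a was higher for 9 members and none differed by over 1.5-fold. In sdAb#07.81 (24 h), library a was over 1.5-fold higher for 3 members, Uba7, Mx1 and Ifi44, as for 6.76% of all genes. With only library b the median difference against sdAb-Con (48 h) was 1.51, and with only library a it was 0.85. The cause of the gap between the libraries was not tested.

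**Figure D3:**
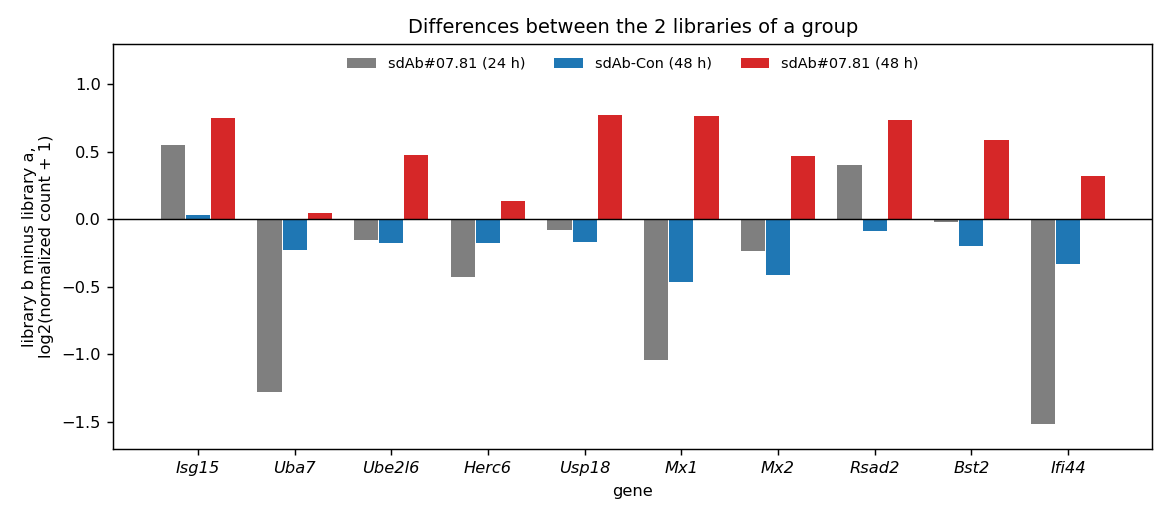
Library b minus library a within each group, for the 10 genes, on the scale log2(normalized count + 1). All red bars of sdAb#07.81 (48 h) point upward, and the grey bars of sdAb#07.81 (24 h) fall below -1 for Uba7, Mx1 and Ifi44.

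Other interferon-stimulated antiviral genes were a list of 49, of which 44 were kept. Of the 44, 27 rose and 0 fell in sdAb#07.81 (48 h) vs sdAb-Con (48 h) (limma, with 1 gene lower at an unadjusted p under 0.05, and 29 higher and 0 lower with voom weights), where 6.57% of all genes were called higher and 3.74% lower. Their median log2 difference was 0.75, below the 1.21 of the members. Compared with the 24 h group, 38 rose and 0 fell, by limma, by voom weights and, for the fall, at an unadjusted p under 0.05, where 21.4% and 21.9% of all genes were called, with a median of 2.07. In sdAb-Con (48 h) vs sdAb#07.81 (24 h) 34 were higher and 0 lower by the same 3 readings, where 25.2% and 25.7% of all genes were called, with a median of 1.40. This list was drawn up with earlier results known and is not independent of them.

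The 3 largest log2 differences of that list against sdAb-Con (48 h) were those of Ifi44l (2.01 ± 0.713), Ifit3b (1.73 ± 0.275) and Ifit1 (1.72 ± 0.205). Ifit1 and Ifit3b, which encode binders of viral RNA or of their complexes, rose, and reads of Ifit3b may be shared with its close copy Ifit3. Ifi44l, the paralog next to Ifi44, was not called (adjusted p = 0.077, limma) at normalized counts of 21.9 and 27.3 in sdAb#07.81 (48 h), 3.83 and 7.30 in sdAb-Con (48 h) and 0.956 and 0 in sdAb#07.81 (24 h). The 2 lowest differences were -0.32 ± 0.128 for Ifi27 and -0.20 ± 0.142 for Isg20, and neither was called.

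Of 21 receptors, kinases, factors and feedback genes of interferon signalling, 5 rose and 0 fell against sdAb-Con (48 h) (limma, with 0 lower at an unadjusted p under 0.05 and with voom weights), where 6.57% and 3.74% of all genes were called, with a median log2 difference of 0.09. Stat2 and Irf7, transcription factors of the pathway, rose by 1.22 ± 0.129 and 0.78 ± 0.173. Il10rb, a receptor chain for interferon lambda, and the feedback inhibitor Socs3 had the lowest, -0.22 ± 0.154 and -0.20 ± 0.150, and were not called. Compared with the 24 h group, 12 of the 21 rose in sdAb#07.81 (48 h), with a median of 0.39, and 11 were higher in sdAb-Con (48 h), with 0 lower by limma, by voom weights or at an unadjusted p under 0.05 in both comparisons. Of all genes, 21.4% and 25.2% were called higher in these comparisons.

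Interferon transcripts were scarce. Of 11 interferon ligand genes 4 had recovered counts, and together these held between 0 and 5 reads in a library. Ifnb1, the interferon beta gene, had normalized counts of 2.09 and 4.37 in sdAb#07.81 (48 h), 2.87 and 0 in sdAb-Con (48 h) and 0 and 0.918 in sdAb#07.81 (24 h). At so few reads no difference between groups was detectable at this depth, and none of the 4 passed the filter.

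The relatives of the ISG15 enzymes in the ubiquitin, NEDD8, SUMO and UFM1 systems showed no common direction. Of 38 such genes, all kept, 5 rose and 2 fell against sdAb-Con (48 h), where 6.57% and 3.74% of all genes did, and 7 were higher and 10 lower at an unadjusted p under 0.05, with a median log2 difference of -0.07. Trim25, an E3 ligase of the antiviral response, rose by 0.92 ± 0.110, and the large ligase Herc1 by 0.68 ± 0.119. Rps27a and Fau, which encode ubiquitin or a ubiquitin-like protein fused to a ribosomal protein, fell by 0.52 and 0.44 on the log2 scale. Relative to the 24 h group both were higher, by 0.76 and 0.50 in sdAb#07.81 (48 h) and by 1.29 and 0.94 in sdAb-Con (48 h). In the same 2 comparisons Trim25 had 1.37 and 0.45, and Herc1 had 0.02 and -0.66. Against sdAb#07.81 (24 h), 8 rose and 9 fell, where 21.4% of all genes were called higher and 21.9% lower. In sdAb-Con (48 h) vs sdAb#07.81 (24 h), 10 were higher and 11 lower, where 25.2% of all genes were called higher and 25.7% lower.

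The close paralogs of the ISG15 enzymes act mainly on ubiquitin. Ube2l3, the ubiquitin counterpart of Ube2l6, had normalized counts of 3238 and 3175 in sdAb#07.81 (48 h), 3574 and 3438 in sdAb-Con (48 h) and 2882 and 3338 in sdAb#07.81 (24 h). Its log2 difference was -0.13 ± 0.111 against sdAb-Con (48 h) and 0.05 ± 0.111 against the 24 h group. Of the ubiquitin-activating enzymes, Uba1 had -0.27 ± 0.106 against sdAb-Con (48 h) and was not called, and Uba6 rose by 0.48 ± 0.123. Herc3 and Herc4, related to Herc6, had 0.20 ± 0.152 and 0.06 ± 0.116 and were not called.

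Many dynamin superfamily relatives of Mx1 and Mx2 remodel membranes of vesicles, mitochondria and the endoplasmic reticulum. Of 14 listed, 13 were kept and 0 were called in sdAb#07.81 (48 h) vs sdAb-Con (48 h) by limma or with voom weights, and 1 was higher at an unadjusted p under 0.05. With 6.57% of all genes called higher and 3.74% lower, a count of 0 among 13 is near the background. Their log2 differences ran from -0.23 ± 0.111 for Ehd1 to 0.28 ± 0.231 for Srl, with Atl2 at 0.25 ± 0.111, Dnm1l at 0.24 ± 0.118 and Dnm1 at -0.07 ± 0.149. Relative to the 24 h group, 3 rose and 2 fell in sdAb#07.81 (48 h) (21.4% and 21.9% of all genes), and 2 were higher and 5 lower in sdAb-Con (48 h) (25.2% and 25.7%).

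**Figure D4:**
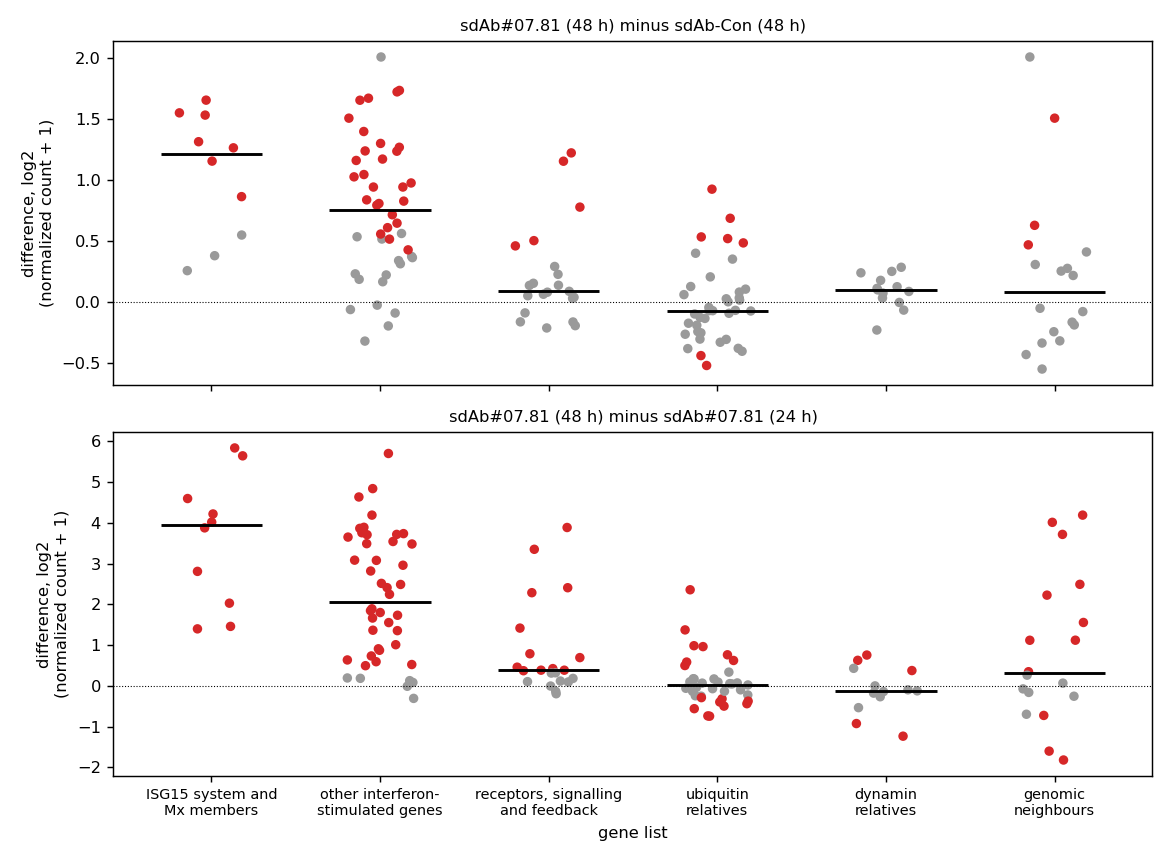
Differences on the scale log2(normalized count + 1) of the 10 members and of the kept genes of 5 lists, each point a gene, red where called at an adjusted p under 0.05 and grey otherwise, with a bar at the median. In the upper panel (sdAb#07.81 (48 h) minus sdAb-Con (48 h)) the medians are 1.21 for the members, 0.75 for other interferon-stimulated genes and between -0.07 and 0.10 for the other lists.

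The nearest kept gene on each side of a member on the chromosome was compared as well, by the coordinates of the tables and with the members themselves left out. This gave 18 genes, since Mx1 and Mx2, which have no other kept gene between them, share Sh3bgr and Ripk4. Against sdAb-Con (48 h), 3 rose and 0 fell (limma, with 1 lower at an unadjusted p under 0.05, and 4 higher and 0 lower with voom weights), where 6.57% and 3.74% of all genes were called, with a median log2 difference of 0.08. All 3 lie beside Isg15 or Rsad2. Agrn and AW011738, at 1.97 and 2.47 kb on either side of Isg15, rose by 0.47 ± 0.113 and 0.63 ± 0.190, and Cmpk2, an interferon-induced nucleotide kinase gene at 12.8 kb from Rsad2, rose by 1.51 ± 0.198.

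AW011738 had normalized counts of 256 and 272 in sdAb#07.81 (48 h), 169.5 and 172 in sdAb-Con (48 h) and 58.3 and 53.3 in sdAb#07.81 (24 h), in the same order of groups as Isg15. Cmpk2 had 475 and 702 in sdAb#07.81 (48 h), 201 and 204 in sdAb-Con (48 h) and 44.9 and 41.3 in sdAb#07.81 (24 h), the order of Rsad2. Whether reads of overlapping or adjoining transcripts were assigned to these neighbours was not tested.

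The remaining neighbours were not called against sdAb-Con (48 h), and 4 of them were distant, M6pr at 1038 kb, Gm6439 at 1215 kb, ENSMUSG00000120697 at 1254 kb and Sh3bgr at 1218 kb from Mx1. The others of these lay at 0.163 kb (Inka1) to 279 kb (Ripk4 from Mx1). Beside Herc6, Ppm1k had a log2 difference of 0.41 ± 0.138 and Pyurf 0.22 ± 0.195. Beside Bst2, Gtpbp3 had -0.43 ± 0.141 and Mvb12a -0.25 ± 0.127. Beside Uba7 and Ube2l6, Traip had -0.05, Inka1 -0.55, Gm19426 -0.34 and Timm10 -0.32, with standard errors of 0.153, 0.568, 0.523 and 0.284. Pex26 and M6pr, beside Usp18, had -0.19 ± 0.177 and -0.17 ± 0.111, and Sh3bgr and Ripk4, beside the Mx genes, 0.25 ± 0.746 and -0.08 ± 0.125. The unnamed gene on the other side of Rsad2, ENSMUSG00000120697, had 0.27 ± 0.594, and Gm6439, beside Ifi44, had 0.31 ± 0.516. Relative to the 24 h group, 9 of the 18 rose and 3 fell in sdAb#07.81 (48 h), where 21.4% and 21.9% of all genes did. Of the same 18, 11 were higher and 2 lower in sdAb-Con (48 h), where 25.2% and 25.7% of all genes were.

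Among 10280 other genes whose mean normalized count reached 100, those most like the mean course of the members over the 6 libraries were Oas3, Xaf1, Rtp4, Oasl2 and Igtp. Likeness was the root mean square difference between centred log2 levels, which was 0.099 for Oas3, 0.117 for Xaf1, 0.131 for Rtp4, 0.140 for Oasl2 and 0.155 for Igtp. The members themselves lay between 0.283 (Usp18) and 1.02 (Ifi44) from their mean. Oas3 had normalized counts of 3083 and 3761 in sdAb#07.81 (48 h), 1674 and 1628 in sdAb-Con (48 h) and 354 and 241 in sdAb#07.81 (24 h).

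The libraries held 14566246 to 17489293 recovered reads, and replicates differed by a median of 0.156 to 0.181 on the log2 scale. Of 12 markers of 4T1 cells 10 had recovered counts and 9 were kept. A marker without recovered counts was either not listed or too abundant for its counts to be recovered. The epithelial genes Krt8, Krt18, Krt19, Epcam and Cdh1 were at normalized counts of at least 2055 in all 6 libraries, Cd44 at 5133 to 9680, Erbb2 at 543 to 883 and Krt14 at 234 to 652. Of the 9, 0 were called higher and 1, Krt14 (-0.52 ± 0.156), lower against sdAb-Con (48 h) by limma (6.57% and 3.74% of all genes), with 1 higher and 1 lower at an unadjusted p under 0.05 and 1 higher and 0 lower with voom weights. Against sdAb#07.81 (24 h) 1 rose and 3 fell (21.4% and 21.9% of all genes), Cdh1 by 0.63 and Krt14, Cd44 and Erbb2 by 1.32, 0.82 and 0.42 on the log2 scale. Between sdAb-Con (48 h) and the 24 h group, Krt19, Cdh1 and Esr1 were higher and Krt14, Cd44 and Erbb2 lower, 3 each (25.2% and 25.7% of all genes). Pgr was at 1.84 or less, and Esr1, whose estrogen receptor protein a triple-negative line lacks by definition, was at 271 to 452. Nupr1, which encodes the protein targeted, was at 2918 and 2919 in sdAb#07.81 (48 h), 3576 and 2998 in sdAb-Con (48 h) and 2136 and 1556 in sdAb#07.81 (24 h), which does not check the labels because the sdAb acts on the protein. Of 17 immune and stromal markers 14 had recovered counts. Their summed normalized count was 744 to 831 in sdAb#07.81 (48 h), 847 to 1245 in sdAb-Con (48 h) and 294 to 495 in sdAb#07.81 (24 h). Nearly all of it was Cd68 and Col1a1, the 2 of the 14 that were kept. Neither was called against sdAb-Con (48 h) by limma or with voom weights, with 1, Cd68 (-0.52 ± 0.185), lower at an unadjusted p under 0.05. Cd68 was called higher against the 24 h group, the direction of the members, by 1.17 ± 0.185 in sdAb#07.81 (48 h) and 1.69 ± 0.185 in sdAb-Con (48 h), and Col1a1 was called higher in both with voom weights but not in the fit used here. The defining markers Ptprc and Cd3e were at 4.37 or less and at 1.09 or less, and from 3 to 7 of the 14 were at 0 in a library. Longer genes tended higher against sdAb-Con (48 h). The median log2 difference was -0.19 in the shortest and 0.14 in the longest of 3 equal groups of genes tested by exon length. The trend ran the other way against sdAb#07.81 (24 h), with 0.10 and -0.07 for sdAb#07.81 (48 h) and 0.26 and -0.22 for sdAb-Con (48 h). The 11584 genes in the members' range of exon length (756 to 9292 bases) had medians of -0.05, -0.01 and 0.03 in the same order of comparisons. The part of these values in the members' differences was not tested.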

How the data were processed

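Illumina libraries of 4T1 cells (RNA-Seq, paired-end) were processed by the authors with cutadapt 1.9.1, HISAT2 2.0.1 and HTSeq 0.6.1, as their processing notes list them. The notes name the human build GRCh38.p14, which goes against the mouse gene identifiers, so coordinates are copied from the tables without a build. The 2 deposited tables give per gene a signal, the mean over 4 libraries of counts divided by size factors. Their columns of fold changes, standard errors, statistics and p-values are the authors' own comparisons and were not used.

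Counts per library were recovered from that mean. Genes with a single read give the step of each library, both tables share 2 libraries, and all whole-number solutions of the 2 equations were enumerated at 15 digits. Of 28712 genes, 28570 had a single solution and 105 a single one with replicates within 2-fold. The other 37, with means of at least 24680, were left out and held 13.95% and 11.42% of the summed means, so the totals of recovered reads are below the full depth. All 10 genes described were recovered. The authors' size factors equalled a recovered ratio of counts, or the middle of 2 neighbouring ones, within 1.79e-15 (natural log). The shared libraries were recognised because all of their single-read genes are listed in both tables, against at most 36.0% for any other library, and so belong to sdAb#07.81 (48 h), named in both. The table name Nab-48h was taken as sdAb-Con (48 h), the only other 48 h group of the labels. Libraries a and b carry no replicate number.

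Counts were scaled by the median of ratios over 6 libraries, filtered at a mean normalized count of 10 and tested as log2(normalized count + 1) with limma 3.58.1 (R 4.3.3, lmFit and eBayes with trend, 3 groups in 1 fit, two-sided, Benjamini-Hochberg threshold 0.05). The analysis was tested on simulated data. The recovery and the lists were computed in Python 3.11.15 (numpy 2.4.6, pandas 2.3.3). The members and lists were chosen with earlier results of these data known. Named were all members and their neighbours, the 3 highest and 2 lowest genes of each list against sdAb-Con (48 h), the close paralogs and the 5 genes most alike. Of the genes this rule names, 2 are not reported here. AW011738, Cmpk2 and Agrn fall under the neighbours. Ifnb1, Nupr1 and the markers given with levels were named for their role. Alternatives were other scalings, pseudocounts and filters, only the libraries compared, voom weights and leaving out each library.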

Additional observations from a re-analysis of the deposited data

How the results depend on the processing

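Every member kept its positive difference in all 3 comparisons under every alternative run, apart from Mx1, which the filter at a mean of 100 left out. The median difference over the members against sdAb-Con (48 h) ran from 0.85 to 1.51 when 1 library was left out, the lowest without sdAb#07.81 (48 h) b and the highest without sdAb#07.81 (48 h) a. Against sdAb#07.81 (24 h) it ran from 3.57 to 4.32, with the same 2 libraries at the ends. The count of genes called in sdAb#07.81 (48 h) vs sdAb-Con (48 h), 1436 of 13924, ran from 179 to 2107 when 1 library was left out, with 179 without sdAb#07.81 (48 h) a, 499 without sdAb-Con (48 h) a and 362 without sdAb-Con (48 h) b. Without the filter on low counts it was 7 of 28675 genes, and none of the members was called (limma, 4591 genes at an unadjusted p under 0.05). The cause of these changes was not tested.

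Of the members' single calls against sdAb-Con (48 h), 10 were lost and 4 gained over all alternatives. Those lost were the 7 without the filter, Mx1 without sdAb#07.81 (48 h) b or sdAb-Con (48 h) b, and Ifi44 without sdAb-Con (48 h) b. Those gained were Bst2 without sdAb#07.81 (48 h) a, and Uba7 when only the 4 libraries compared were fitted or when either sdAb#07.81 (24 h) library was left out. In sdAb-Con (48 h) vs sdAb#07.81 (24 h), 3 calls of Uba7 were lost, and in sdAb#07.81 (48 h) vs sdAb#07.81 (24 h) none of 139 values changed its call. With a single library left in a group, that library is assumed to vary like those of the other groups. A count test on the recovered reads was planned only for deposited values that are themselves steps of whole reads. The deposited means over 4 libraries are not, so it was not run. No paired analysis was possible because the recovered libraries carry no replicate numbers.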
